A study of Mus musculus with 6 samples.

Results

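The liver X receptor (LXR) and cholesterol efflux genes were described in adherent cells grown from mouse bone marrow. The set was given as a list of 10 symbols, Nr1h2, Nr1h3, Abca1, Abcg1, Apoe, Apoc1, Pltp, Lpcat3, Mylip and Soat1. All 10 were found among the 39017 Ensembl identifiers of the deposited count table, and 9 of them had enough counts for testing. The libraries came from old mice, more than 78 weeks of age (n = 3), and from young mice, 3 weeks of age (n = 3). The strain was BALB/c, which is inbred, the genotype was wild type in both ages, and the labels give no treatment. Long bones of the limbs were crushed, cells that did not attach were removed, and the attached cells were expanded in serum-containing medium and labelled by the submitters as F4/80+CD169+ macrophages. RNA of 10000 cells was used for each library. The labels do not state whether the replicates are separate mice or cultures, so p-values measure only the spread between these libraries, which may be technical.

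Total counts ranged from 34391206 to 43367734 per library. Levels are CPM, the reads of a gene relative to the composition-scaled size of its library, and a mean stands with its SD (n = 3 for each age). Log2 fold changes are old minus young, with SE. Unless another tool is named, adjusted p-values are from edgeR's quasi-likelihood test, adjusted by Benjamini-Hochberg over the 15567 genes tested, and a gene rose or fell where that value was under 0.05. The macrophage markers were present in each library, and 13 of 15 fell in old libraries (11 to 14 on leaving out 1 library), with 0 rising and a median log2 fold change of -0.91. Their summed level was 5332 to 5752 CPM in old and 9418 to 11124 CPM in young libraries, and none was at 0. The collagen gene Col1a1, a product of connective tissue cells, was the most abundant gene in each library. Young replicate 3 stood apart on the second principal component, and Col1a1 and Col1a2 together took 5.44% of its counts, against 1.80% to 2.25% in old and 2.66% to 3.00% in the other young libraries.

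LXRs are nuclear receptors that are activated by oxysterols, oxidized forms of cholesterol. They sit on DNA as partners of the retinoid X receptors and, when a cell holds surplus cholesterol, raise the genes that move it out or make membranes tolerate it. In macrophages the best-known targets are the efflux transporters ABCA1 and ABCG1, which pass cholesterol to apolipoprotein A1 and to high-density lipoprotein, and the secreted acceptor apolipoprotein E.

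Of the 9 tested genes, 3 fell in old libraries (Abca1, Pltp and Mylip), 1 rose (Nr1h3) and 5 did not pass. Across all tested genes 4.7% were lower and 5.84% higher in old libraries. The median log2 fold change was -0.18 over the 9 genes and -0.01 over all tested genes. Old and young ranges were apart for 7 of the 9, all but Abcg1 and Apoe, and for 30.2% of all tested genes. In these bulk samples fewer cells of a type and less RNA per cell cannot be told apart. The macrophage markers fell in the same libraries as Abca1, Pltp and Mylip, and their part in these results was not tested.

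**Figure D1:**
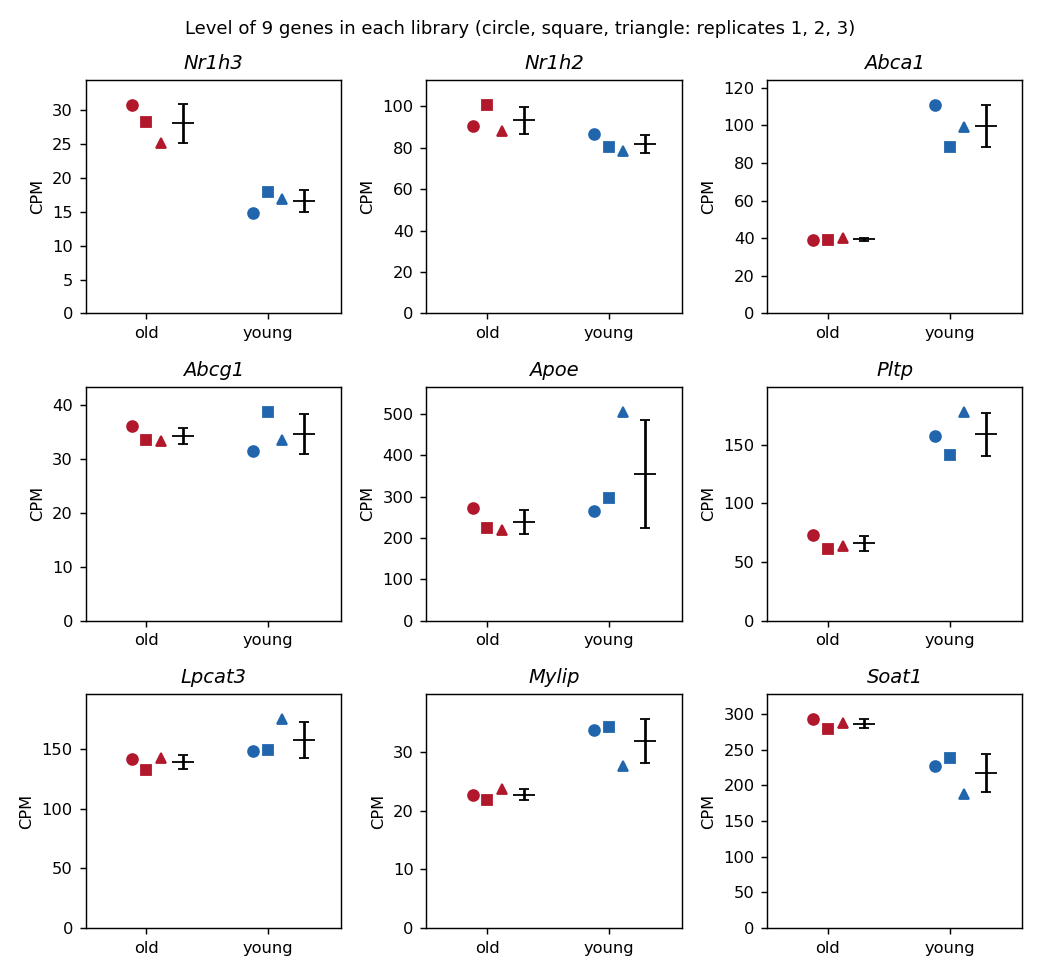
Level of 9 genes in CPM (linear axis from 0) in each old (red, left) and young (blue, right) library, with the mean and SD in black. Abca1 and Pltp sit lower in all 3 old libraries than in any young one, Nr1h3 sits higher, and the Abcg1 ranges overlap.

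The gene of LXRα rose while that of LXRβ did not pass the test. Nr1h3 encodes LXRα, the form that is abundant in macrophages, liver and fat. It had 30.8, 28.3 and 25.1 CPM in old replicates 1, 2 and 3, against 14.8, 17.9 and 16.9 CPM in young replicates 1, 2 and 3. Each old library was above each young one. Its log2 fold change was 0.76 with SE 0.13, a 1.70-fold higher level (adjusted p = 0.0108). Leaving out old replicate 1 ended the call (adjusted p = 0.0541), as did leaving out old replicate 2 (adjusted p = 0.0527). In the mm10 build Nr1h3 spans 91184061 to 91202834 of chromosome 2, and 1.35% of its exon length is shared with another gene model.

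Nr1h2 encodes LXRβ, the form found in nearly all tissues. It had 90.6, 100.7 and 88.1 CPM in old libraries, against 86.7, 80.5 and 78.5 CPM in young libraries. The ranges were apart by a small gap, and the log2 fold change of 0.19 with SE 0.09 did not pass (adjusted p = 0.253). Of the retinoid X receptor partners, Rxra had 45.7 ± 5.43 CPM in old and 37.3 ± 4.12 CPM in young libraries, and Rxrb had 57.3 ± 2.25 CPM in old and 57.3 ± 4.24 CPM in young libraries, and neither passed. Rxrg had 0 counts in each library. Among 15 tested genes of the retinoid X receptors and the coactivators and corepressors of nuclear receptors, 0 rose and 0 fell with edgeR, 2 had an unadjusted p under 0.05, and DESeq2 called 1 higher (limma-voom 0). With edgeR 1 was also called higher under TMM without the 50 most abundant genes, with at least 50 counts in 3 libraries and with a replicate block. Tbl1xr1, a corepressor subunit named after its values were seen, had 88.3 ± 8.27 CPM in old and 67.4 ± 4.32 CPM in young libraries (adjusted p = 0.050044). The most abundant of them were the corepressor subunits Tbl1x (log2 fold change 0.12) and Hdac3 (0.22).

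Abca1 had the lowest log2 fold change of the 9 tested genes. It encodes the transporter that loads cholesterol and phospholipid onto lipid-poor apolipoprotein A1, and it is a direct LXR target. Abca1 had 38.8, 39.0 and 40.1 CPM in old libraries, against 110.9, 88.3 and 99.2 CPM in young libraries. The old libraries lay within 2 CPM of each other and far below the lowest young one. The log2 fold change was -1.34 with SE 0.10, a 2.53-fold lower level (adjusted p = 0.00071). The gene lies on chromosome 4 at 53030787 to 53159895 of mm10, and none of its exon length is shared with another gene model. Its call was kept in each of the 14 alternative settings, with adjusted p of at most 0.00858.

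Abcg1 did not follow Abca1. It encodes the transporter that passes cholesterol to mature high-density lipoprotein, and it is also a direct LXR target. Abcg1 had 36.0, 33.5 and 33.2 CPM in old libraries, against 31.5, 38.7 and 33.4 CPM in young libraries. The ranges overlapped almost wholly. The estimate was -0.01 ± 0.11 (SE) on the log2 scale (adjusted p = 0.966), and its sign turned on leaving out old replicate 2 or 3 or young replicate 2 (log2 fold changes of 0.00, 0.01 and 0.08). Among 8 tested relatives of the ABCA and ABCG transporter families, 0 rose and 0 fell with edgeR, 3 had an unadjusted p under 0.05, and DESeq2 called 1 higher and 1 lower (limma-voom 0). Without young replicate 3, edgeR called 1 lower. Abcg2, an exporter of drugs and porphyrins, had 53.7 ± 2.81 CPM in old and 52.5 ± 5.85 CPM in young libraries. Abca3, a phospholipid transporter, had 35.8 ± 2.88 CPM in old and 35.8 ± 1.48 CPM in young libraries. The sterol transporters Abcg5 and Abcg8, LXR targets of liver and gut, had 0 counts in each library.

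The promoter of Abca1 is shown because LXR and its partner are known to bind a repeated element in it. The element is a pair of units resembling AGGTCA with 4 bases between them. RefSeq windows of 250 bases before to 50 bases after the start (GRCm38.p6) matched 8 of the 10 genes, and Abcg1 and Apoc1 were unmatched. With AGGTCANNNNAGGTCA on either strand and at most 1 mismatch in each unit, 0 of the 11 windows of these genes matched, and 1.75% of all 32851 windows did. The wording TGACCGNNNNTAACCC, the same arrangement read on the opposite strand, was taken from the Abca1 window after it had been read. Searched exactly on both strands, it was present in 3 of the 32851 windows (0.00913%), those of Abca1, Srebf1 and Fasn. The match in Abca1 was fixed by that choice of wording, and the number of matches to expect by chance was not computed. Srebf1, a master gene of fatty acid synthesis, and Fasn, the fatty acid synthase gene, are both described as LXR targets. The stretches around the match are printed 5′ to 3′ on the strand of the gene, with the paired units in capitals. They lie at chr4:53159907-53160002 (minus strand) for Abca1, chr11:60210598-60210693 (minus strand) for Srebf1, at 1 of its 3 windows, and chr11:120824717-120824797 (minus strand) for Fasn.
Abca1: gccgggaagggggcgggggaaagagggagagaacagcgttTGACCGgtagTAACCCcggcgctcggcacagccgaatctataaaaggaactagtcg
Srebf1: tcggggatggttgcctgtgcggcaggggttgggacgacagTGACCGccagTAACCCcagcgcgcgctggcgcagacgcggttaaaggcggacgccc
Fasn: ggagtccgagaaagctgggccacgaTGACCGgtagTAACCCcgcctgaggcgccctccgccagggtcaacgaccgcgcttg
The match ran from 67 to 52 bases before the start in Abca1, from 182 to 167 in Srebf1 and from 225 to 210 in Fasn. In the counts, Srebf1 had 97.8 ± 4.93 CPM in old and 152 ± 21.5 CPM in young libraries, a log2 fold change of -0.63 (adjusted p = 0.0138). Fasn had 278 ± 23.8 CPM in old and 361 ± 74.1 CPM in young libraries, a log2 fold change of -0.37 that did not pass (adjusted p = 0.183). A match is a description of the letters and no measure of binding. The counts are per gene and do not tell the starts of Srebf1 apart.

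Pltp, the phospholipid transfer protein gene, fell as well. The protein moves phospholipid between lipoproteins and remodels high-density lipoprotein in plasma. Pltp had 73.2, 61.5 and 63.6 CPM in old libraries, against 157.2, 141.6 and 178.0 CPM in young libraries. Each old library was below each young one by a wide margin. The log2 fold change was -1.27 with SE 0.11, a 2.40-fold lower level (adjusted p = 0.00122), and the call was kept in each of the 14 alternative settings (adjusted p of at most 0.00998). Pltp lies on chromosome 2 at 164839518 to 164857711, and 19.3% of its exon length is shared with the cathepsin A gene Ctsa. Ctsa had 517 ± 15.1 CPM in old and 552 ± 113 CPM in young libraries (log2 fold change -0.09, adjusted p = 0.765).

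Apoe had the widest spread of the set in young libraries. Apolipoprotein E is secreted by macrophages and by other cells, takes up exported cholesterol and is a ligand of lipoprotein receptors. Apoe had 272.7, 224.5 and 219.9 CPM in old libraries, against 264.7, 297.9 and 505.3 CPM in young libraries. The high value was that of young replicate 3, the library with the largest collagen share, and the remaining young values lay beside the highest old one. On the log2 scale the difference was -0.57 ± 0.24 (SE; adjusted p = 0.202). Without young replicate 3 it was -0.23. Apoc1 encodes a small apolipoprotein that is made mostly in the liver and is controlled by LXR together with Apoe. The genes are neighbours on chromosome 7, with Apoc1 at 19689481 to 19692660 and Apoe at 19696109 to 19699188, 3448 bases apart. Apoc1 had 5, 0 and 0 counts in old libraries, against 0, 0 and 4 counts in young libraries. A count of 0 allows up to 3 counts, which is 0.0779 to 0.0856 CPM in those libraries. Apoc1 was therefore not tested, and no difference was detectable at this depth. Such limits cover counting error only, because copies made in amplification were not told apart by molecular identifiers.

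Lpcat3 and Mylip act on membranes and on receptors. Lpcat3 encodes the enzyme that places polyunsaturated fatty acids into membrane phospholipids. It had 141.7, 132.3 and 143.1 CPM in old libraries, against 148.5, 149.6 and 175.3 CPM in young libraries. The ages were separated by a narrow gap, and the log2 fold change of -0.18 with SE 0.09 did not pass (adjusted p = 0.282). Of its exon length, 10.2% is shared with Emg1, which had a log2 fold change of -0.01. Among 10 tested genes of related acyltransferases, Mboat2 and Lpcat2 fell (log2 fold changes of -1.67 and -1.34) and Lpgat1 rose (0.58). Lpcat2 no longer passed when old replicate 2 or 3 or young replicate 1 or 2 was left out (adjusted p up to 0.0833), nor Lpgat1 when any old library was (adjusted p up to 0.0938).

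Mylip, also called IDOL, encodes a ubiquitin ligase that marks lipoprotein receptors for destruction, so that LXR activity lowers lipoprotein uptake. Mylip had 22.6, 21.8 and 23.7 CPM in old libraries, against 33.7, 34.3 and 27.6 CPM in young libraries. The old values lay together, below the lowest young value. The log2 fold change was -0.49 with SE 0.11, a 1.40-fold lower level (adjusted p = 0.0387). It no longer passed when any library but young replicate 3 was left out (adjusted p of 0.0965 to 0.147), and without that one the adjusted p was 0.00676. The gene lies on chromosome 13 at 45389742 to 45412022. Receptors that Mylip acts on include Vldlr and Lrp8. Vldlr fell, with 6.5 ± 1.3 CPM in old and 20.5 ± 4.80 CPM in young libraries (log2 fold change -1.66, adjusted p = 0.00536). Lrp8 had 16 ± 1.8 CPM in old and 22.6 ± 6.68 CPM in young libraries (adjusted p = 0.24, and 0.0337 without young replicate 1).

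Soat1 missed the threshold by a small margin. It encodes acyl-CoA cholesterol acyltransferase, which turns free cholesterol into esters for storage in droplets and so works against efflux. Soat1 had 292.6, 279.6 and 286.8 CPM in old libraries, against 227.1, 238.4 and 187.3 CPM in young libraries. Each old library was above each young one, and young replicate 3 was the lowest. On the log2 scale the difference was 0.40 ± 0.10 (SE; adjusted p = 0.0509). Without young replicate 3 the adjusted p was 0.0146 at a log2 fold change of 0.30. With the DESeq2 test it was 0.0091 and with limma-voom 0.0484. Among 17 tested genes of cholesterol release and traffic, 1 rose and 1 fell. Lipa, the lysosomal acid lipase that frees cholesterol from lipoprotein esters, rose to 831 ± 62.6 CPM in old libraries, against 554 ± 59.7 CPM in young libraries (adjusted p = 0.0144). Tspo, a mitochondrial outer membrane protein linked to cholesterol import, fell to 174 ± 4.53 CPM in old libraries, against 239 ± 21.3 CPM in young libraries (adjusted p = 0.0173). Lipa no longer passed when old replicate 1 or 2 or young replicate 1 was left out (adjusted p up to 0.0706), and Tspo when any library but young replicate 3 was (adjusted p up to 0.0895).

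**Figure D2:**
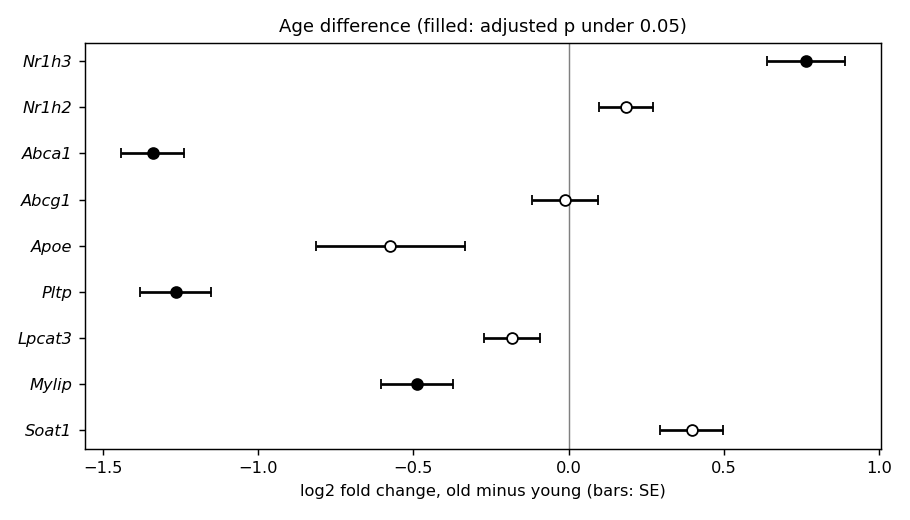
Log2 fold change, old minus young, of the 9 tested genes with its SE (horizontal bars); filled points have an adjusted p under 0.05. Abca1 at -1.34 and Pltp at -1.27 lie furthest below 0 and Nr1h3 at 0.76 furthest above it.

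Levels can be compared between genes once divided by exon length. On the scale of CPM per kilobase of exon, Apoe was highest in both ages, with 111.8 ± 13.7 in old and 166 ± 61.0 in young libraries. In old libraries Lpcat3 followed (42.5 ± 1.79), then Soat1 (29.2 ± 0.666), Nr1h2 (27.8 ± 2.00) and Pltp (25.8 ± 2.44). Soat1 and Nr1h2 overlapped in range, as did Nr1h2 and Pltp. Lower came Nr1h3 (11.2 ± 1.13), Mylip (7.03 ± 0.292), Abcg1 (4.70 ± 0.211) and Abca1 (3.79 ± 0.068), none of which overlapped its neighbour. In young libraries the order after Apoe was Pltp (62.0 ± 7.13), Lpcat3 (48.3 ± 4.64), Nr1h2 (24.4 ± 1.27), Soat1 (22.2 ± 2.74), Mylip (9.86 ± 1.15), Abca1 (9.60 ± 1.09), Nr1h3 (6.57 ± 0.638) and Abcg1 (4.73 ± 0.510). There the ranges of Nr1h2 and Soat1 overlapped, and so did those of Mylip and Abca1. Abca1 was thus below Abcg1 in old libraries and above it in young ones, and Apoc1 was last in both. Exon length here is the union of all annotated exons, which overstates the transcript length of genes with many isoforms.

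Ratios between genes within a library do not depend on scaling between libraries. The ratio of Abca1 to Abcg1 per kilobase was 0.759, 0.820 and 0.850 in old libraries, against 2.48, 1.61 and 2.09 in young libraries. The old minus young difference was -1.33 on the log2 scale. The ratio of Nr1h3 to Nr1h2 was 0.453, 0.374 and 0.380 in old libraries, against 0.227, 0.297 and 0.287 in young libraries, a log2 difference of 0.58. The ratio of Abca1, which exports cholesterol, to Soat1, which stores it, was 0.125, 0.132 and 0.132 in old libraries, against 0.461, 0.350 and 0.50 in young libraries, a log2 difference of -1.74. The ages did not overlap in any of these 3 ratios. Exact two-sided permutation tests gave p = 0.1 for each (adjusted p = 0.1 over the 3), the smallest that 3 against 3 libraries allow. A ratio of Apoe to Apoc1 could not be formed because Apoc1 had 0 counts in 4 libraries.

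**Figure D3:**
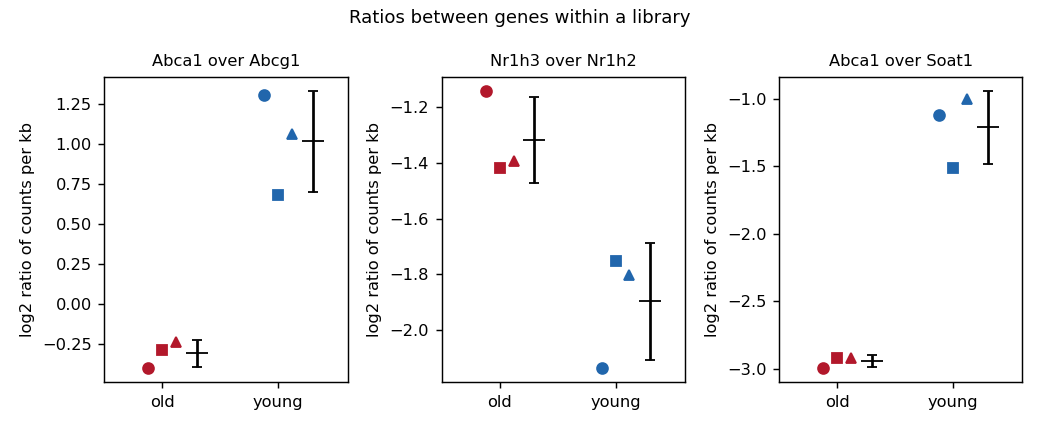
Log2 ratio of counts per kilobase of exon in each old (red, left) and young (blue, right) library, with the mean and SD in black; circle, square and triangle are replicates 1, 2 and 3, and axes do not start at 0. Abca1 over Abcg1 lies below 0 in the 3 old libraries and above 0 in the 3 young ones.

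The set was also placed against the macrophage markers of the same libraries. The geometric mean of the 15 markers was 160 to 176 CPM in old and 287 to 318 CPM in young libraries, a log2 difference of -0.86. Relative to it, Abca1 was at -2.09 ± 0.092 in old and -1.62 ± 0.200 in young libraries on the log2 scale, and Pltp at -1.34 ± 0.081 in old and -0.94 ± 0.238 in young libraries. These were the genes of the set whose level relative to the markers was lower in old libraries. Mylip, lower in CPM, was higher relative to the markers, at -2.88 ± 0.108 in old and -3.26 ± 0.104 in young libraries. Abcg1, even in CPM, stood at -2.29 ± 0.017 in old and -3.14 ± 0.130 in young libraries. Nr1h3 had the widest gap, with -2.58 ± 0.084 in old and -4.20 ± 0.154 in young libraries. Soat1 was at 0.77 ± 0.056 in old and -0.49 ± 0.111 in young libraries. The ranges of the ages overlapped for Apoe alone among the 9 genes. The marker difference of -0.86 enters each of these values, so a gene that is even in CPM, such as Abcg1, stands higher in old libraries. How many of all tested genes would have ranges apart on this scale was not computed. These values are a description with no test, and cells other than macrophages can express the genes too.

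**Figure D4:**
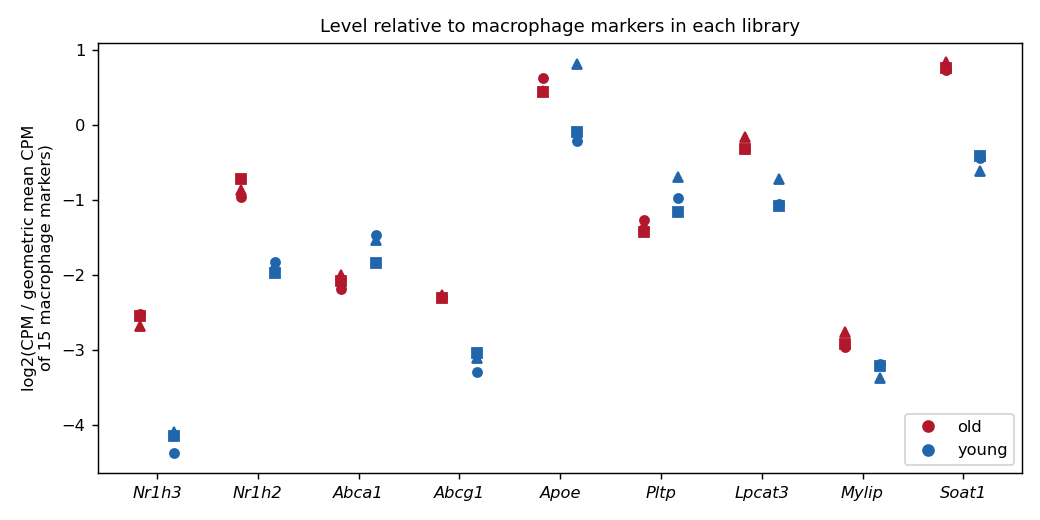
Log2 of each gene's CPM over the geometric mean CPM of 15 macrophage markers, in each old (red, left) and young (blue, right) library; circle, square and triangle are replicates 1, 2 and 3. Abca1 and Pltp lie lower in the old libraries, and Nr1h3, Nr1h2, Abcg1, Mylip, Lpcat3 and Soat1 lie higher.

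Markers of other cell types moved in both directions. Among stromal markers 2 rose and 2 fell of 10 tested (0 to 1 fell on leaving out 1 library), with a median log2 fold change of -0.62. The summed level of the 10 was 23525 to 29633 CPM in old and 30818 to 68480 CPM in young libraries. Without the collagens the sum was 2114 to 2415 CPM in old and 947 to 1335 CPM in young libraries, most of it from Cxcl12 (1511 ± 97.4 CPM in old and 589 ± 109 CPM in young libraries), and the median log2 fold change of those 7 genes was -0.42. Among adipocyte markers 1 of 3 tested rose, Fabp4, which macrophages make as well, with Lep and Retn at 0 counts in each library. B cell markers rose in 4 of 5 (2 to 4 on leaving out 1 library), megakaryocyte markers in 3 of 6 (0 to 4) and osteoclast markers in 1 of 5 (1 to 2), with 0 falling in each of these lists. Of 6 endothelial markers 0 rose and 0 fell with edgeR, with 2 at an unadjusted p under 0.05 and 1 called lower by DESeq2 (0 by limma-voom). Of 8 neutrophil markers 0 rose and 0 fell with edgeR, with 3 at an unadjusted p under 0.05 and 2 called lower by DESeq2 (0 by limma-voom). The part of these cells in the results above was not tested.

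Other LXR targets were described from a list of 20 genes. Of these 15 were tested, 5 fell (3 to 5 on leaving out 1 library), 1 rose (0 to 1) and 9 did not pass, with a median log2 fold change of -0.37. Across all tested genes 4.7% fell and 5.84% rose, and the difference between the list and other genes was not tested. Scd2, a fatty acid desaturase, fell to 791 ± 72.9 CPM in old libraries, against 2024 ± 130 CPM in young libraries (adjusted p = 0.000647). Arl4c, a small GTPase linked to cholesterol movement, fell to 9.05 ± 1.01 CPM in old libraries, against 19.2 ± 0.819 CPM in young libraries (adjusted p = 0.00283). Apoc2, the cofactor of lipoprotein lipase, fell to 1.52 ± 0.353 CPM in old libraries, against 4.05 ± 0.506 CPM in young libraries (adjusted p = 0.0124), and 79.5% of its exon length is shared with another gene model. Srebf1 also fell, with its values given beside its promoter, and leaving out old replicate 1 or 2 ended its call (adjusted p up to 0.0739). The remaining calls, named after their values were seen, were Mertk, a receptor for dying cells, and Lpl, lipoprotein lipase. Mertk fell to 27.2 ± 4.74 CPM in old libraries, against 43.8 ± 1.79 CPM in young libraries (adjusted p = 0.022), which no longer passed when old replicate 1 or young replicate 1 or 2 was left out (adjusted p up to 0.0837). Lpl rose to 762 ± 107 CPM in old libraries, against 393 ± 131 CPM in young libraries (adjusted p = 0.049), which no longer passed when any library but young replicate 3 was left out (adjusted p up to 0.155) or with no low-count filter (adjusted p = 0.061).

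Genes of cholesterol synthesis under SREBP2, the transcription factor that is active when sterols are scarce, were lower or did not pass. Of 14 tested, 4 fell (1 to 8 on leaving out 1 library) and 0 rose, with a median log2 fold change of -0.32. Over all tested genes 4.7% fell and 5.84% rose, with a median of -0.01. The difference between this list and other genes was not tested. Among the 4, Hmgcs1 and Lss, enzymes of sterol synthesis, and Insig1, which holds SREBP2 back, fell by 0.50, 0.54 and 0.35 on the log2 scale. Of the exon length of Hmgcs1, 12.1% is shared with another gene model. Hmgcs1 no longer passed when old replicate 1 or 2 was left out, Lss when any old library was (adjusted p up to 0.0619 for each), and Insig1 when any library but young replicate 3 was (adjusted p up to 0.165) or with no low-count filter (adjusted p = 0.0524). The count of 4 became 1 without old replicate 1 or 2, 2 without old replicate 3 and 8 without young replicate 3.

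Of 6 tested enzymes that make or break oxysterols, the ligands of LXR, 0 rose and 0 fell with edgeR, 3 had an unadjusted p under 0.05, and DESeq2 called 1 lower (limma-voom 0). Without young replicate 1 or 3, edgeR called 1 lower. Hsd3b7 had 51.8 ± 0.864 CPM in old and 47.8 ± 4.48 CPM in young libraries, and 99.2% of its exon length is shared with other gene models. Among 12 tested lipoprotein and scavenger receptors, 2 rose and 3 fell. Cd36, a receptor for oxidized lipoprotein, rose to 577 ± 26.8 CPM in old libraries, against 294 ± 37.7 CPM in young libraries (adjusted p = 0.00233), and Sort1, a sorting receptor, rose by a log2 fold change of 0.80. Lsr and Msr1 fell with Vldlr. Lsr had 2.62 ± 0.443 CPM in old and 5.94 ± 1.26 CPM in young libraries, and Msr1 had 314 ± 18.9 CPM in old and 420.1 ± 42.5 CPM in young libraries. Msr1, the class A scavenger receptor, was named after its values were seen, and 44.7% of the exon length of Lsr is shared with other gene models. Sort1 no longer passed when any 1 old library was left out (adjusted p up to 0.0564), nor did Lsr and Msr1 when any library but young replicate 3 was (adjusted p up to 0.0746 for Lsr and 0.158 for Msr1). With a replicate block Msr1 did not pass either (adjusted p = 0.0843).

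**Figure D5:**
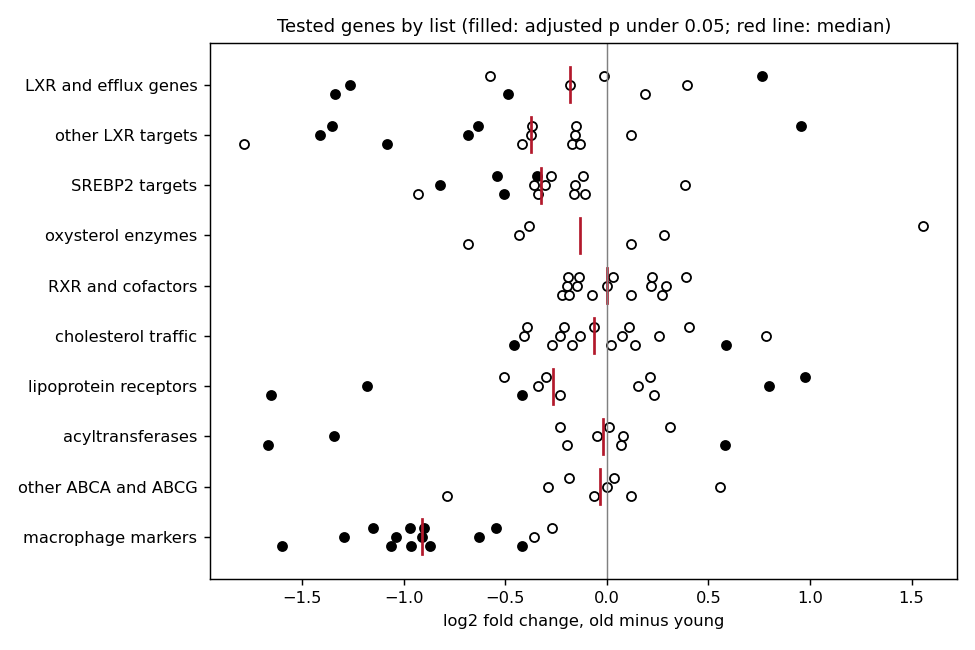
Log2 fold change, old minus young, of each tested gene (points; filled, adjusted p under 0.05; vertical scatter within a row has no meaning), with the median of each list as a red line. The macrophage markers have a median of -0.91, the other LXR targets -0.37 and the LXR and efflux genes -0.18.

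The genes whose profile over the 6 libraries was nearest to that of Abca1, Apoe and Nr1h3 were found among 9627 genes with a mean of at least 10 CPM, by the root-mean-square difference of centred log2 levels. Nearest to Abca1 were Scd2 (0.084), Dok5 (0.089) and Aldoc (0.108). Nearest to Apoe were Rabl6 (0.117), Usp42 (0.122) and Fkbp15 (0.137), each with its highest level in young replicate 3. Nearest to Nr1h3 were Dhrs3 (0.048), Trib1 (0.052) and Cdk20 (0.058). Scd2 belongs to the list of LXR targets, and the nearness is a description over 6 libraries of 2 ages.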

How the data were processed

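The authors deposited whole-number counts of reads per Ensembl gene for 6 libraries. Per the labels' protocols, amplified cDNA from the SMART-Seq v4 kit, whose reads carry no strand, was sequenced as read pairs of 100 bp. Per the submitters' processing notes, the build was mm10, the aligners named were HISAT2 2.1.0 and STAR 2.6.1a, and StringTie 1.3.4d, SAMtools 1.9, Picard 2.18.15, Trim Galore 0.50 and cutadapt 1.18 were also named. How reads were counted (tool, annotation release, strand setting, multiply mapping reads) is not given in the sources used here, so genes that overlap may share or lose reads. Exon overlaps above 10% are stated.

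Of 39017 identifiers, 37607 had a symbol, and those without one took 0.339% to 0.398% of each library. Positions and lengths are from GENCODE mouse M21 (mm10). The test was edgeR 4.0.16 in R 4.3.3 (filterByExpr, TMM, robust quasi-likelihood test, threshold 0.05 on adjusted p); the SE is the absolute log2 fold change over the square root of F. CPM uses TMM-scaled library sizes. Exact permutation tests used scipy 1.17.1. The fit was tested on simulated data, where small changes were recovered less often than large ones. A gene that did not pass may therefore still differ between the ages.

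The members, the 8 pathway and 8 marker lists and the naming rule were chosen with earlier results of these data known. The count for each list stands beside 4.7% lower and 5.84% higher over all tested genes. No list was tested against the other genes. Named were all 10 members, up to 4 called genes per pathway list with the smallest p or else the 2 most abundant, and the 3 nearest profiles of Abca1, Apoe and Nr1h3 (pseudocount 0.5). Some genes that this rule names are not reported here. The alternatives were other scalings (size factors of DESeq2 1.42.0, upper-quartile, TMM without the 50 most abundant genes), other tests (DESeq2; limma-voom, limma 3.58.1), other filters (none; 50 or more counts in 3 libraries), a block for the replicate number, and each library left out. No pair of same-age libraries agreed within sampling noise.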

Additional observations from a re-analysis of the deposited data

How the results depend on the processing

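Across 14 alternatives the calls of Abca1 and Pltp were kept, and Nr1h2, Apoe and Lpcat3 were not called in any (adjusted p of at least 0.237, 0.0891 and 0.262). One more gene, Soat1, passed beside Nr1h3, giving 2 higher genes of the set, with the DESeq2 test, limma-voom, TMM without the 50 most abundant genes (adjusted p = 0.0497) and at least 50 counts in 3 libraries (adjusted p = 0.0456). On leaving out 1 library the set had 0 to 2 higher and 2 to 3 lower genes, all genes had 418 to 1459 higher and 294 to 1168 lower, and the 93 tested genes of the pathway lists had 1 to 6 higher (main value 5) and 7 to 22 lower (main value 15). The DESeq2 test called 1137 genes lower, where edgeR called 731. Signs turned for genes near 0 that were not called. Leaving out 1 library, Abcg1 ranged from -0.0750 to 0.0765, Abcg2 from -0.0523 to 0.101 and Abca3 from -0.0516 to 0.0610 (log2 fold change), and Abca3 was at -0.000881 with the replicate block and at -0.000426 with TMM without the 50 most abundant genes. The cause of these moves was not tested. Scaling moved the median of all genes by less than 0.1. The main test did not treat replicate numbers as pairs, because the labels do not say what libraries of the same number share. Correlations of the deviations of same-numbered libraries were 0.09, 0.03 and 0.09, and each library correlated best with its own number. Whether the numbers mark pairs was therefore left undecided. With a replicate block, 711 genes were higher and 575 lower, and 2 genes of the set were lower, since Mylip was lost (adjusted p = 0.0832), and among the other named genes Msr1 was lost too. Low counts limited Apoc1.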
